A study of Mus musculus with 8 samples.

Results

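The 35 genes described here encode proteins that bring glucose into the cell, split it to pyruvate, turn pyruvate into lactate or pass it to mitochondria, and divert glucose into the pentose phosphate pathway, together with the transcription factors Hif1a and Myc and the hypoxia targets Bnip3 and Vegfa. They were taken by name from the 48404 named genes of the table. Of these, 34 were among the 12798 genes tested, for which 2 or more libraries had to reach a value of 60. Vegfa did not and was not tested.

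T cells import glucose through transporters of the Slc2a family and trap it with hexokinases, after which the glycolytic enzymes carry it to pyruvate. Resting T cells burn most of this pyruvate in mitochondria. Activated effector T cells instead make lactate from much of it and export the lactate through Slc16a transporters, a switch in which Myc and Hif1a take part, while Tregs are known for a greater reliance on mitochondrial oxidation.

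CD70 is the ligand of CD27, a costimulatory receptor of T cells. Tregs (CD4+ Foxp3+) and Tconvs (CD4+ Foxp3-) were compared between CD27+/- control mice and CD11c-Cd70tg;CD27+/- mice (CD70Tg), so that every group carried 1 functional copy of CD27. The transgene is driven by the CD11c promoter, hence CD70 was placed on dendritic cells and other CD11c+ cells and the T cells were seen in mice whose immune system as a whole was exposed to it. Mice were 6 to 8 weeks old and carried a Foxp3 reporter by which 200000 CD3+ CD4+ cells were sorted from the spleen for each library, after a magnetic depletion aimed at macrophages, dendritic, B, NK and erythroid cells, granulocytes and CD8+ cells. An antibody to CD25 was added for Tconvs but not for Tregs. There were 2 libraries in each of 4 groups, called here the first and the second. The sources do not say whether they came from separate animals, so that the p-values measure only the spread between libraries.

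Values are reads on genes scaled to 20 M in each library. The number of reads behind them, estimated from the low values, was 6.95 to 33.22 M for Tconv and 1.92 to 4.57 M for Treg libraries, so that every Treg library was shallower than every Tconv library and depth cannot be told apart from the subset. The shallowest library was the first of the CD70Tg Tregs. At these depths, 18 of the 35 genes had at least 100 reads in every library, and 4 (Hk2, Bnip3, Pfkfb4 and Vegfa) had under 20 in at least 1. The sort was as labelled, since all 8 Treg identity genes were higher in Tregs. All 7 T cell genes were lower in Tregs than in Tconvs of control mice (median log2 fold change -0.46), against 18.4% of all tested genes. In CD70Tg mice 4 of them were lower, against 20.1%, and none was higher in either comparison. Some markers of other cells, among them cells that the depletion and sort would remove, differed between the genotypes. The sum of 8 neutrophil markers was 5 and 10 in control Tregs and 244 and 227 in CD70Tg Tregs (6 to 31 in Tconvs), where 1 of 8 was tested and rose and Elane was at or under the value of 3 reads in all libraries. Of 8 erythroid markers 5 were tested and 4 rose in CD70Tg Tregs, with sums of 596 and 1628 against 4109 and 2489 (885 to 1538 in Tconvs). The sums of Cd8a and Cd8b1 were 681 to 720 in control and 1563 to 1590 in CD70Tg Tconvs, and 317 to 417 against 631 to 660 in Tregs. Of 5 NK cell markers, summing to 769 and 702 in control and 2888 and 3474 in CD70Tg Tconvs and to 157 and 111 against 1547 and 1469 in Tregs, 2 were tested. Eomes, also a factor of memory T cells, rose in both subsets (log2 fold changes 3.33 in Tconvs and 4.09 in Tregs) and made up most of the CD70Tg sums, and the receptor Klrb1c fell in both (-2.45 and -2.57), while the defining marker Ncr1 was at 0 to 2 in all libraries. Of 10 macrophage and dendritic cell markers 7 were tested, and 4 were higher in Tregs than in Tconvs of control mice and 5 in CD70Tg mice, with none lower (sums 1332 to 1819 in Tconvs and 2979 to 3265 in Tregs). With the transgene, Itgam rose in Tregs and fell in Tconvs (1.13 and -0.95), Csf1r fell in Tregs (-0.67), and Cd68 and Itgax rose in Tconvs (2.02 and 1.76). Of 8 B cell markers, which summed to 73 to 197 in Tconvs and 298 to 495 in Tregs, 2 were tested, and 1 was higher in Tregs in control and both in CD70Tg mice. Of all tested genes, 3.94% rose with the transgene in Tregs and 6.82% in Tconvs. Between the subsets, 27.5% were higher in Tregs in control mice and 22.6% in CD70Tg mice. The part of such cells in the results on glucose metabolism was not tested. In bulk samples, fewer cells of a type and less RNA per cell cannot be told apart.

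In control mice, 14 of 34 members differed between Tregs and Tconvs, against 45.9% of all tested genes. Slc2a3, Hk2, Aldoc, Slc16a3, Hif1a and Myc were higher in Tregs, and Pdk1, Aldoa, Slc16a1, Mpc2, Ldha, Pgk1, Taldo1 and G6pdx were lower. That is 6 of 34 genes higher, against 27.5% of all tested genes, and 8 of 34 lower, against 18.4% (limma, adjusted p under 0.05). More than 2-fold higher were 5, against 14.7%, and more than 2-fold lower 1, against 4.43%. The median log2 fold change of the 34 genes was -0.11, and that of all tested genes 0.07.

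Among the glucose transporters, Slc2a3, which has a high affinity for glucose (Ensembl ENSMUSG00000003153, chr6:122727809-122801640 on mm10, minus strand), had values of 1209 and 1053 in control Tconvs and 3761 and 3818 in control Tregs. Every Treg library lay above every Tconv library, by 3.35-fold (log2 fold change 1.74, SE 0.14, adjusted p = 7.1e-08, limma). Slc2a1, the transporter that activated T cells are best known for, had 1232 and 1082 in Tconvs and 1243 and 1025 in Tregs. These overlapped, with a log2 fold change of -0.03 (95% interval -0.34 to 0.28). Levels of different genes were compared per kilobase of exon. On that scale Slc2a3 made up 32.1% ± 0.13 (SD, n = 2) of the sum of both transporters in control Tconvs and 61.9% ± 3.46 in control Tregs, so that the leading transporter of these pairs was Slc2a1 in Tconvs and Slc2a3 in Tregs.

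Hk2, the inducible hexokinase, stood at 31 and 32 in control Tconvs and at 224 and 123 in control Tregs, a log2 fold change of 2.23 (SE 0.46, adjusted p = 9.8e-04, limma). The groups did not overlap. These values rest on 30, 15, 46 and 28 reads, respectively, and Hk2 was at most a small part of hexokinase transcript. Hk1, the constitutive hexokinase, had 5158 and 4738 in Tconvs and 4906 and 4480 in Tregs, which overlapped (log2 fold change -0.08, 95% interval -0.32 to 0.17). Per kilobase, Hk2 was 0.9% ± 0.07 of both hexokinases in control Tconvs and 5.0% ± 1.66 in control Tregs.

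The aldolases, which split the hexose into trioses, moved apart. Aldoa, the main aldolase of T cells, had 11793 and 10969 in control Tconvs and 6556 and 5460 in control Tregs, so that all Treg values were lower (log2 fold change -0.93, SE 0.12, adjusted p = 1.3e-05, limma). Aldoc, a minor form here, had 104 and 82 in Tconvs and 301 and 250 in Tregs, with no overlap (log2 fold change 1.52, SE 0.27, adjusted p = 2.5e-04, limma). In CD70Tg mice Aldoc had 78 and 73 in Tconvs and 262 and 267 in Tregs, and per kilobase it made up 3.9% ± 0.01 of aldolase transcript in control Tregs. The phosphofructokinases Pfkl, Pfkm and Pfkp, which commit sugar to glycolysis, did not pass the test, with log2 fold changes from -0.08 to 0.03. Nor did the isomerases Gpi1 (-0.27, 95% interval -0.52 to -0.03, adjusted p = 0.062) and Tpi1 (0.30, 95% interval -0.10 to 0.70, adjusted p = 0.2, limma).

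At the lactate end, Slc16a3, the exporter typical of glycolytic cells, had 153 and 86 in control Tconvs against 626 and 587 in control Tregs. On the log2 scale with 5 added it was the member with the greatest difference between the subsets, at 5.10-fold (log2 fold change 2.35, SE 0.30, adjusted p = 9.2e-06, limma), while by the plain group means Hk2 (31.5 and 174) was further apart than Slc16a3 (120 and 606). In CD70Tg Tregs Slc16a3 had 627 and 664. Slc16a1, the more widely used monocarboxylate transporter, was lower in Tregs, with 1166 and 888 in Tconvs and 685 and 539 in Tregs (log2 fold change -0.74, SE 0.18, adjusted p = 0.0032, limma). The share of Slc16a3 in the sum of both per kilobase was 8.7% ± 1.69 in control Tconvs and 45.4% ± 3.07 in control Tregs. Ldha, the lactate dehydrogenase subunit that favours lactate production and the highest member per kilobase in both control groups, fell from 15611 and 17063 in Tconvs to 11762 and 10548 in Tregs (log2 fold change -0.55, SE 0.12, adjusted p = 0.0012, limma). Ldhb, the subunit that favours pyruvate, overlapped between them (-0.15, 95% interval -0.50 to 0.20).

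**Figure D1:**
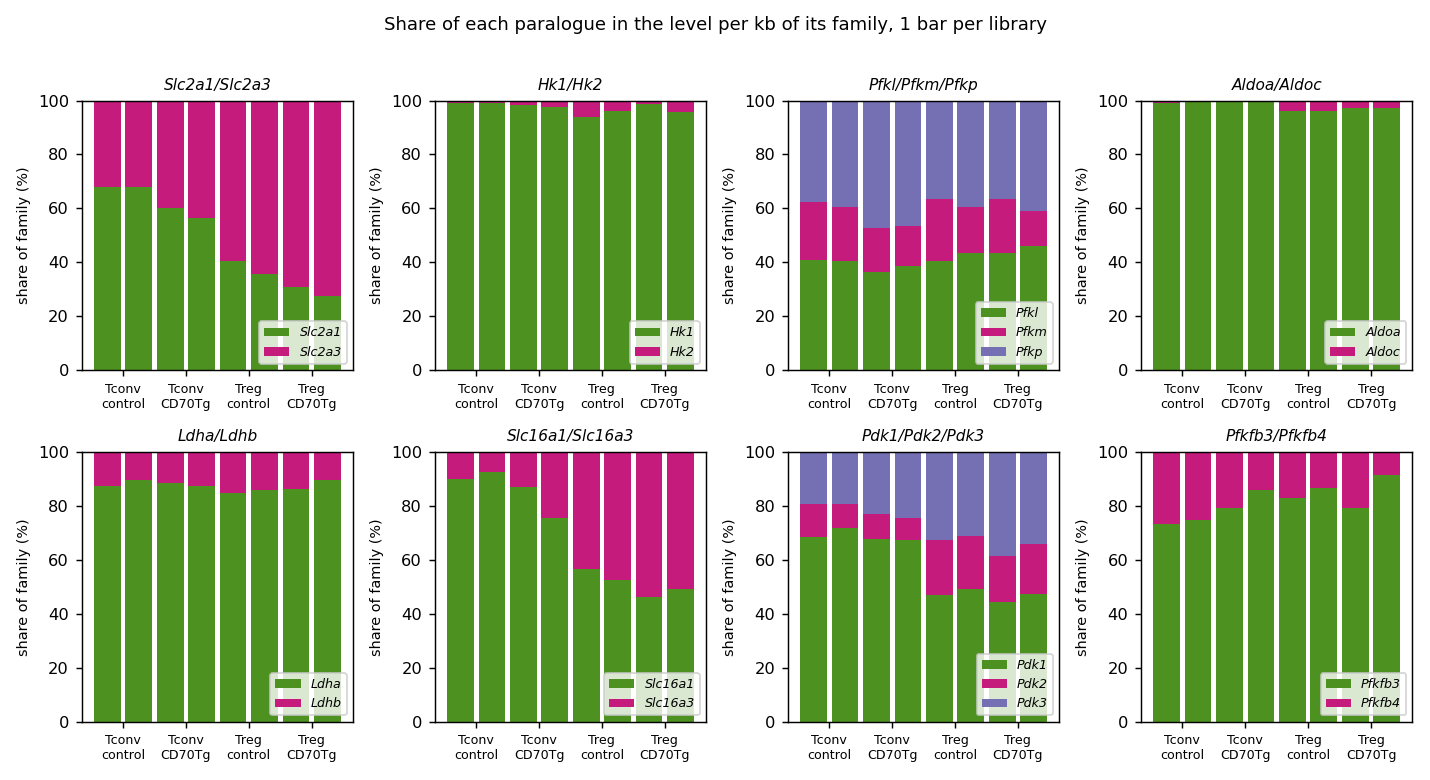
Share of each paralogue in the summed level per kilobase of exon of its family, in percent, with 1 bar for each of the 8 libraries. The upper part of the bar of the Slc2a1/Slc2a3 and Slc16a1/Slc16a3 panels widens from Tconvs to Tregs, with Slc2a3 at 32.1% in control Tconvs and 61.9% in control Tregs on average, while Ldha stays above 80% of the lactate dehydrogenases in every library.

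Pdk1, a kinase that shuts off pyruvate dehydrogenase and so holds back the oxidation of pyruvate in mitochondria, had 6471 and 6161 in control Tconvs and 2791 and 2719 in control Tregs. It was the member lower by more than 2-fold in Tregs (2.29-fold, log2 fold change -1.20, SE 0.11, adjusted p = 5.0e-07, limma), and in CD70Tg mice it had 6109 and 5965 in Tconvs and 2048 and 2442 in Tregs. Its paralogues Pdk2 and Pdk3 did not pass the test (log2 fold changes 0.27 and 0.07), so that the share of Pdk1 among the 3 kinases per kilobase was 70.2% ± 2.22 in control Tconvs and 48.1% ± 1.39 in control Tregs. Mpc2, a subunit of the mitochondrial pyruvate carrier, was lower in Tregs (931 and 940 against 675 and 513, log2 fold change -0.66, adjusted p = 0.006, limma), and its partner Mpc1 had a log2 fold change of -0.44 that did not pass (95% interval -0.89 to 0.02). Pdha1, the catalytic subunit of pyruvate dehydrogenase, gave -0.15 (95% interval -0.37 to 0.08).

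Of the transcription factors, Hif1a, the oxygen-regulated subunit of hypoxia-inducible factor, had 3294 and 2463 in control Tconvs and 8186 and 7610 in control Tregs. The subsets were 2.77-fold apart without overlap (log2 fold change 1.47, SE 0.16, adjusted p = 2.4e-06, limma). Myc, which drives growth and the transcription of glycolytic genes in activated T cells, had 2181 and 2030 in Tconvs and 3247 and 3008 in Tregs (log2 fold change 0.57, SE 0.12, adjusted p = 8.5e-04, limma). Bnip3, a hypoxia-induced gene of mitophagy, overlapped between the subsets (111 and 141 against 136 and 119). Vegfa, the angiogenic factor, had 50 and 28 in control Tconvs and 15 and 14 in control Tregs, the latter from 3 reads in each library, so that no comparison was made.

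In the pentose phosphate pathway, which supplies reducing power and ribose, Taldo1 (5048 and 5458 against 3892 and 3411) and G6pdx, the entry enzyme (1657 and 1522 against 1243 and 1152), were lower in control Tregs, by 0.53 and 0.41 on the log2 scale (adjusted p = 0.0015 and 0.013, limma). Tkt gave -0.19 (95% interval -0.45 to 0.08). Of the 4 enzymes of the lower pathway, Pgk1 was lower in Tregs (log2 fold change -0.54, adjusted p = 0.0028, limma), and Gapdh, Pkm and Pgam1 lay between -0.30 and -0.07 without passing. Of the 3 genes that set the level of the regulatory sugar fructose 2,6-bisphosphate, Pfkfb3, Pfkfb4 and Tigar, none passed in this comparison. Their log2 fold changes were 0.05, -0.89 and -0.34, and the interval for Pfkfb4 (-1.71 to -0.06) lay below 0, at an adjusted p of 0.074 (limma).

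**Figure D2:**
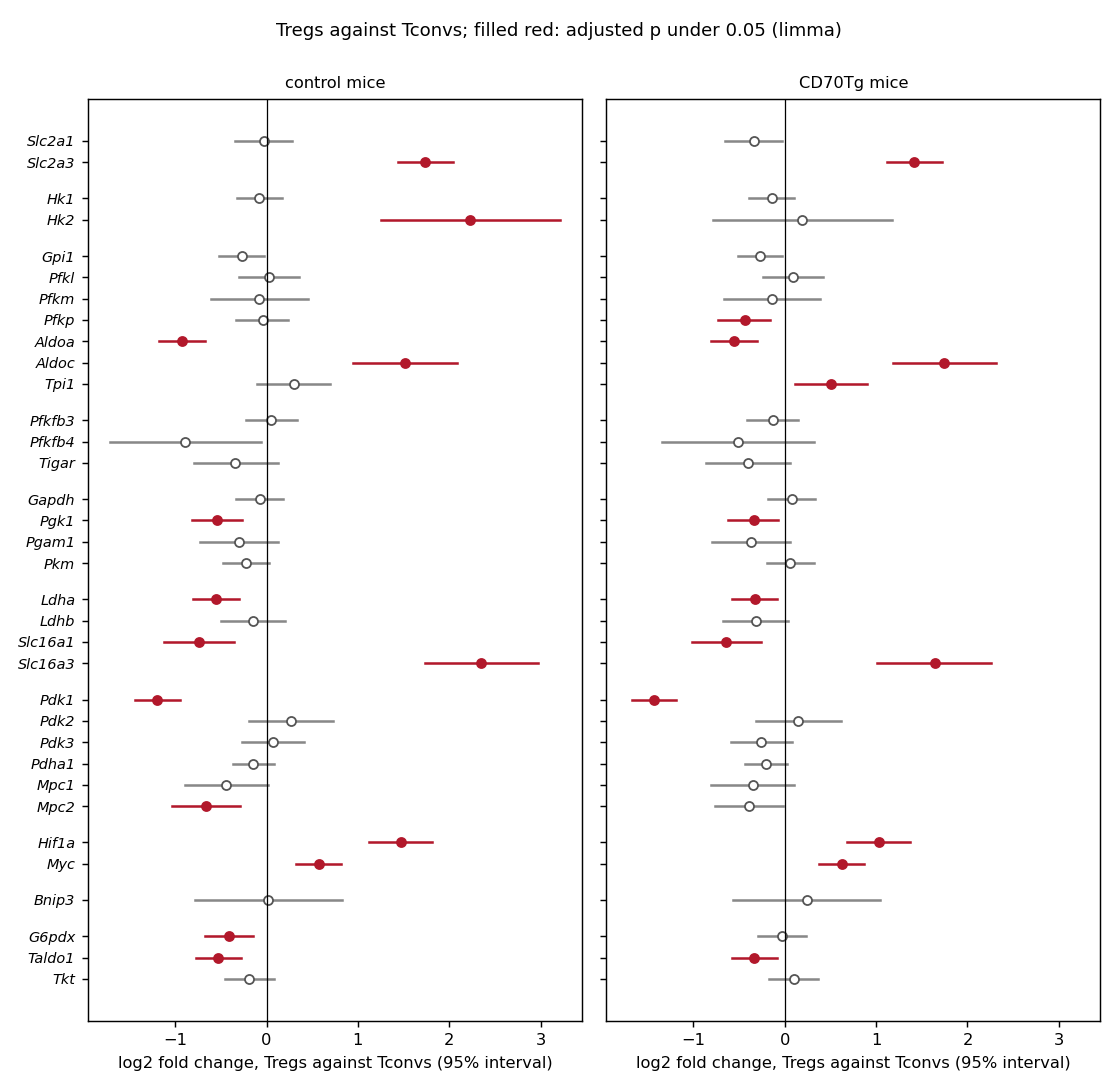
Log2 fold change of each tested member between Tregs and Tconvs, with 95% intervals from limma, in control mice and in CD70Tg mice. The points for Slc16a3, Hk2, Slc2a3, Aldoc and Hif1a lie above 1 in control mice and that for Pdk1 below -1.

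The subsets were compared likewise in CD70Tg mice. There, 6 of 34 members were higher in Tregs, against 22.6% of all genes, and 7 were lower, against 20.1% (limma, adjusted p under 0.05). Aldoc (log2 fold change 1.74), Slc16a3 (1.64), Slc2a3 (1.42), Hif1a (1.03), Myc (0.63) and Tpi1 (0.51) were higher, and Pdk1 (-1.43), Slc16a1 (-0.64), Aldoa (-0.56), Pfkp (-0.44), Pgk1 (-0.34), Taldo1 (-0.34) and Ldha (-0.33) were lower. Hk2 had 58 and 110 in CD70Tg Tconvs and 53 and 158 in CD70Tg Tregs, which overlapped fully (log2 fold change 0.19, 95% interval -0.79 to 1.17). G6pdx had 1597 and 1686 against 1589 and 1632 and overlapped likewise (log2 fold change -0.03, 95% interval -0.29 to 0.23). Of the 7 lower members, only Pdk1 and Aldoa passed without the first CD70Tg Treg library, which is the shallowest, and only Pdk1, Aldoa and Slc16a1 without the second CD70Tg Tconv library. The call of Tpi1 was lost without the first CD70Tg Tconv library or either CD70Tg Treg library, with limma-voom and with no minimum value, with log2 fold changes from 0.13 to 0.88 and an adjusted p of up to 0.52 (limma) over the alternatives.

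With the CD70 transgene, 3 members passed the test in Tregs. Aldoa and G6pdx rose, Myc fell, and none changed more than 2-fold, against 2.52% of all genes higher and 1.08% lower. The 2 members that rose stand against 3.94% of all genes and the 1 that fell against 3.46%, which is 3 of 34 members against 7.40% of all genes in either direction. The median log2 fold change was -0.00 over the members and -0.05 over all genes, the median size of the change 0.23 and 0.21, and 33 of 34 members lay below 0.5 in size, as did 81.7% of all genes.

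Aldoa (ENSMUSG00000030695, chr7:126795234-126800751, minus strand) had 6556 and 5460 in control Tregs and 8004 and 8575 in CD70Tg Tregs. Both CD70Tg libraries were above both controls, by 1.38-fold (log2 fold change 0.47, SE 0.12, adjusted p = 0.025, limma), and still below the Tconv values of 10969 to 12607 (11779 and 12607 in CD70Tg Tconvs). Its reads can be shared with close copies, since 13.5% of the 50-base words of its exons occur in other genes. G6pdx (ENSMUSG00000031400, chrX:74409483-74429194, minus strand) had 1243 and 1152 in control Tregs and 1589 and 1632 in CD70Tg Tregs, again without overlap (log2 fold change 0.43, SE 0.12, adjusted p = 0.044, limma). The CD70Tg Treg values lay within the range of 1522 to 1686 seen in Tconvs. Another gene, Ikbkg, overlaps 13.6% of its exon sequence, and without the strand setting of the counting their reads cannot be told apart there.

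Myc (ENSMUSG00000022346, chr15:61985391-61990374, plus strand) had 3247 and 3008 in control Tregs and 2383 and 2181 in CD70Tg Tregs. It fell by 0.45 on the log2 scale (SE 0.12, adjusted p = 0.025, limma), without overlap. These 3 calls in Tregs were lost with limma-voom on the estimated reads (adjusted p from 0.054 to 0.2), with no minimum value and when any library of either CD70Tg or control Tregs was left out, except for Aldoa without the first control (adjusted p = 0.049). Their log2 fold changes kept their sign throughout, at 0.34 to 0.60 for Aldoa, 0.37 to 0.48 for G6pdx and -0.52 to -0.39 for Myc.

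In Tregs, Slc2a3 had 3761 and 3818 in control and 4828 and 5274 in CD70Tg libraries, which did not overlap. Its log2 fold change of 0.41 (95% interval 0.11 to 0.71) had an adjusted p of 0.09 (limma). It passed with the 4 Treg libraries alone (adjusted p = 0.0044) and with median-of-ratios and upper-quartile factors (adjusted p = 0.027 and 0.029, limma). Over the alternatives that kept every library of the comparison the adjusted p ran from 0.0044 to 0.26. The log2 fold change stayed between 0.35 and 0.48 over all alternatives. Gapdh, the oxidising enzyme of the lower pathway, had 12563 and 11086 against 13991 and 16062 (log2 fold change 0.34, adjusted p = 0.093, limma). Pdk1 had 2791 and 2719 against 2048 and 2442 (log2 fold change -0.30, adjusted p = 0.13, limma). In all, 12 members had both CD70Tg Treg values above both controls and 6 had both below, against 22.5% and 31.2% of all genes.

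In Tconvs, the same number of members passed the test. Slc2a3 and Hif1a rose and Myc fell, and none changed more than 2-fold, against 4.07% of all genes higher and 0.570% lower. The 2 that rose stand against 6.82% of all genes and the 1 that fell against 1.98%, or 3 of 34 against 8.80% in either direction. The median log2 fold change was -0.04 over the members and 0.01 over all genes, and the median size 0.19 and 0.18. Below 0.5 in size were 28 of 34 members and 82.8% of all genes.

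Slc2a3 had 1209 and 1053 in control Tconvs and 1600 and 2209 in CD70Tg Tconvs. The groups did not overlap, at 1.66-fold (log2 fold change 0.73, SE 0.14, adjusted p = 0.0025, limma), and Slc2a1 stayed at 1232 and 1082 against 1164 and 1384 (log2 fold change 0.14, 95% interval -0.17 to 0.45). Per kilobase, the share of Slc2a3 in both transporters was 32.1% ± 0.13 in control and 41.8% ± 2.57 in CD70Tg Tconvs. The highest Slc2a3 value of the Tconvs, 2209, lay below the lowest of the Tregs, 3761.

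Hif1a (ENSMUSG00000021109, chr12:73901375-73947530, plus strand) had 3294 and 2463 in control Tconvs and 3660 and 5318 in CD70Tg Tconvs. The lower CD70Tg value lay close to the higher control, and the log2 fold change was 0.63 (SE 0.16, adjusted p = 0.02, limma). Without the second CD70Tg library, which held the highest value, it was 0.36 (adjusted p = 0.27, limma), and without the second control library 0.42 (adjusted p = 0.23, limma), and the alternatives gave 0.0012 to 0.27. Gm15283 and Gm49321 overlap 8.1% of its exon sequence. In Tregs, Hif1a had 8186 and 7610 in control and 8422 and 9602 in CD70Tg libraries (log2 fold change 0.19, 95% interval -0.16 to 0.53, adjusted p = 0.55, limma). Slc2a3 held its call without each of these, at 0.50 (adjusted p = 0.045) and 0.63 (adjusted p = 0.028, limma), and the alternatives gave 1.6e-04 to 0.083.

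Myc had 2181 and 2030 in control Tconvs and 1473 in each CD70Tg library. It fell by 0.51 on the log2 scale (SE 0.12, adjusted p = 0.0084, limma), and the CD70Tg values were the lowest of the 8 libraries. Without the first control library the change was -0.46 (adjusted p = 0.065, the highest of the alternatives, with 0.0034 the lowest, limma). In both subsets, then, the CD70Tg libraries had less Myc than their controls, and the difference between both changes was 0.06 (95% interval -0.29 to 0.41).

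**Figure D3:**
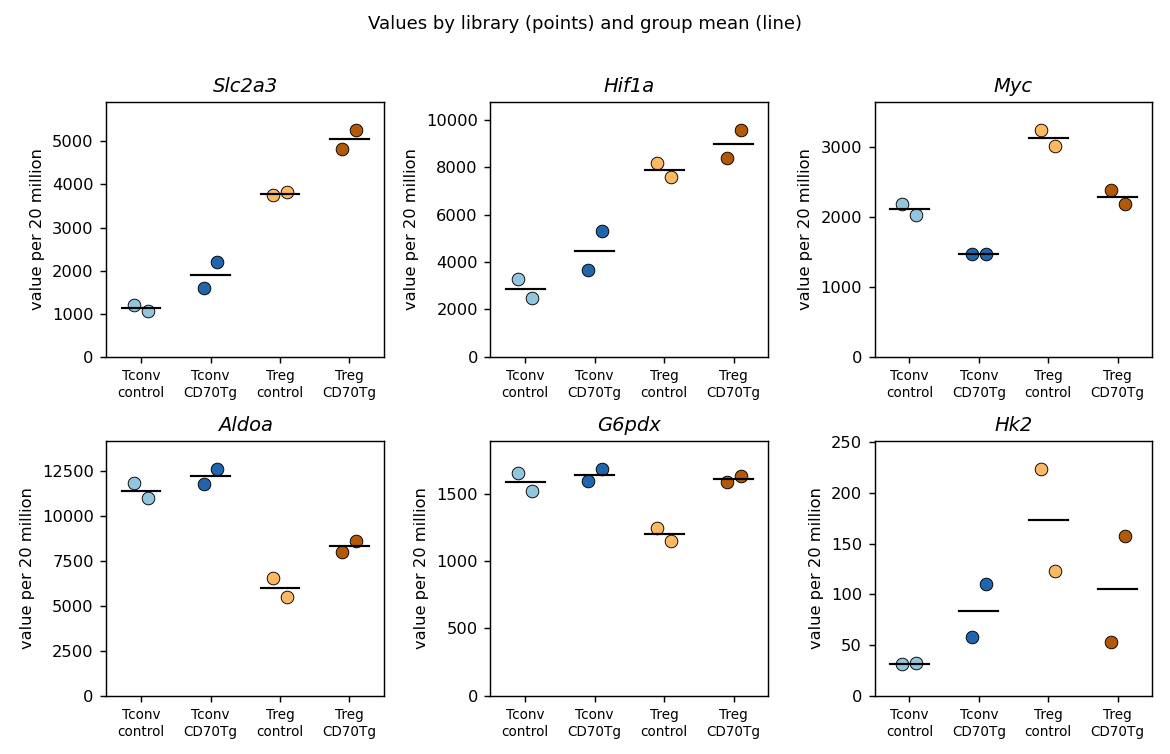
Values per 20 M reads of Slc2a3, Hif1a, Myc, Aldoa, G6pdx and Hk2 in each of the 8 libraries (points) with the group mean (line). Myc is lower in both CD70Tg groups than in their controls, Aldoa and G6pdx in CD70Tg Tregs lie above control Tregs, and the libraries of Hk2 spread widely, from 31 to 224.

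The second CD70Tg Tconv library stood apart from the first in Hk2 and Slc16a3, whose changes did not pass. Hk2 had 31 and 32 in control Tconvs and 58 and 110 in CD70Tg Tconvs, from 20 and 182 reads in the latter (log2 fold change 1.22, 95% interval 0.24 to 2.20, adjusted p = 0.13, limma). The alternatives gave 0.79 to 1.66 and passed in 2 of 17, with limma-voom and with the 4 Tconv libraries alone. Slc16a3 had 153 and 86 against 145 and 286, so that the first CD70Tg library was within the controls (log2 fold change 0.80, 95% interval 0.18 to 1.43, adjusted p = 0.12, limma). Here the alternatives gave 0.32 to 1.28 and passed in 3 of 17, with limma-voom and without the first library of either Tconv group (adjusted p from 0.0082 to 0.67). Summed over 18 proliferation genes, the values were 7667 and 7442 in control Tconvs and 8948 and 14379 in CD70Tg Tconvs, so that the same library was also highest in cell-cycle transcripts. Of those 18 genes, 11 rose in Tconvs (median log2 fold change 1.09), against 6.82% of all genes. They were led by the mitotic genes Bub1 (2.05), Cdk1 (1.61), Ccnb2 (1.56) and Birc5 (1.51). In Tregs the sums were 9534 and 9810 against 12340 and 12944, and 1 of 18 rose, Ccnb2 (1.32, median over the list 0.58), against 3.94% of all genes. Between control subsets, 11 of the 18 were higher in Tregs and 1 was lower (median log2 fold change 0.91), against 27.5% and 18.4% of all genes. The largest difference was that of Mki67 (2.66). The part of cell division in the differences of Slc2a3 and Hif1a, with the transgene or between the subsets, was not tested.

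The other transcripts around pyruvate lay mostly on the negative side of 0 in both subsets without passing. Slc16a1 had 1166 and 888 against 804 and 734 in Tconvs (log2 fold change -0.40, 95% interval -0.78 to -0.02) and 685 and 539 against 450 and 533 in Tregs (-0.31, 95% interval -0.69 to 0.07). Pdha1 had 4127 and 4119 against 3556 and 3661 in Tconvs and 3824 and 3630 against 3062 and 3187 in Tregs, without overlap in either subset, yet its adjusted p was 0.37 and 0.18 (limma), and Map3k15 overlaps 16.1% of its exon sequence. All 6 genes of pyruvate uptake and oxidation in mitochondria had a log2 fold change below 0 in Tregs, from -0.40 to -0.04, and 5 did in Tconvs, where Pdk3 gave 0.28. Of all tested genes, 42.5% had a value above 0 in Tregs and 51.1% in Tconvs. Among the lower glycolytic enzymes, the Treg values ran from 0.03 to 0.34 and those of Tconvs from -0.11 to 0.20, and none passed. Of the regulators, Pfkfb3 (-0.31 in Tregs, -0.13 in Tconvs) and Pfkfb4 (-0.49 and -0.87) lay below 0 and Tigar (0.05 and 0.12) above it, with an adjusted p from 0.18 to 0.92 (limma). For Pfkfb4 the alternatives gave -1.26 to 0.27 in Tregs and -1.15 to -0.60 in Tconvs. In Tconvs its values did not overlap (284 and 239 against 170 and 115), and it passed in 1 of 17 alternatives, with limma-voom (adjusted p = 0.0072).

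**Figure D4:**
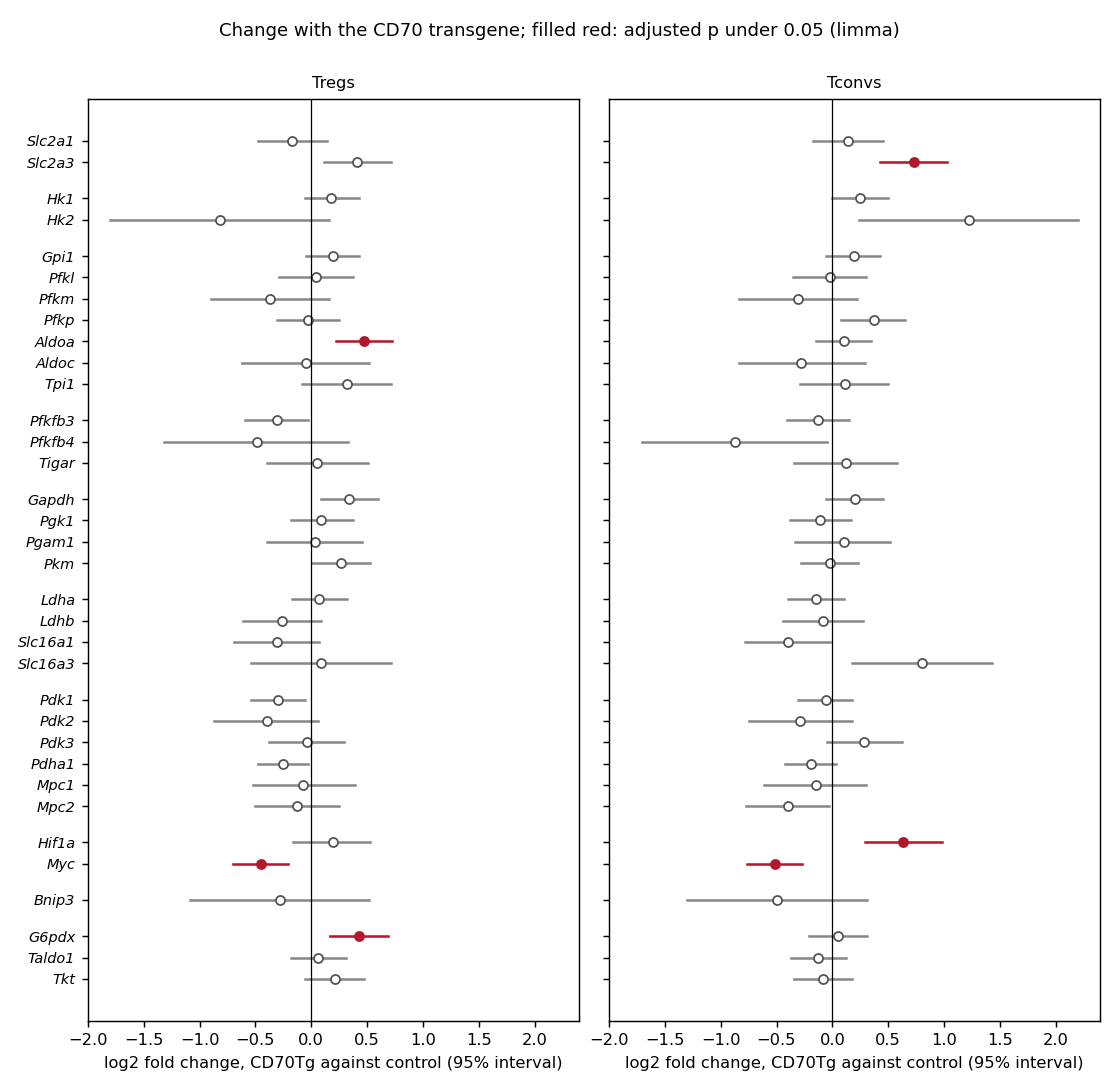
Log2 fold change of each tested member in CD70Tg against control libraries, in Tregs and in Tconvs, with 95% intervals from limma and filled points where the adjusted p was under 0.05. Aldoa, G6pdx and Myc are filled in Tregs and Slc2a3, Hif1a and Myc in Tconvs.

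Whether the transgene changed a member differently in the subsets was tested as the difference of both changes. None of 34 members passed, against 0.188% of all genes higher in Tregs and 0.828% lower (limma), and 3 members had an unadjusted p under 0.05, against 10.7% of all genes. These were Hk2 (difference -2.04, 95% interval -3.42 to -0.65, adjusted p = 0.2), Aldoa (0.37, 95% interval 0.01 to 0.73) and G6pdx (0.38, 95% interval 0.01 to 0.75), the last of these with an adjusted p of 0.45 each (limma). For Hk2 the lowest CD70Tg Treg value, 53, came from 5 reads. Without that library the difference shrank to -1.29 (adjusted p = 0.53), and without the second CD70Tg Treg library, with 158, it was -2.78 and passed (adjusted p = 0.047). Over the alternatives it ran from -2.78 to -1.29, with an adjusted p from 0.047 to 0.59 (limma). The intervals for Slc2a3 (-0.75 to 0.10) and Hif1a (-0.93 to 0.05) contained 0, so that a rise in Tconvs alone was not shown for either gene. Both changes were measured against separate control libraries, and the values of each subset are those given above.

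**Figure D5:**
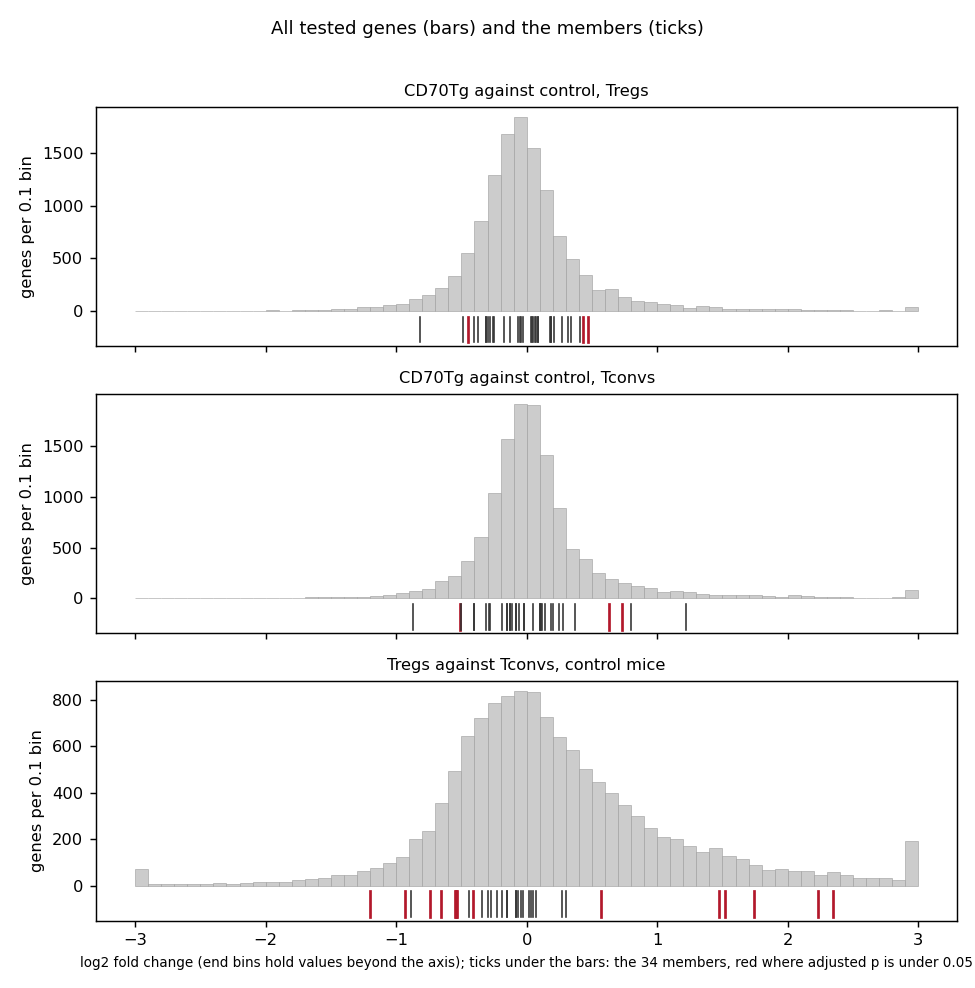
Distribution of the log2 fold change of all 12798 tested genes (bars, genes per bin of 0.1) and the positions of the 34 tested members (ticks under the bars, red where the adjusted p was under 0.05), for CD70Tg against control in Tregs and Tconvs and for Tregs against Tconvs in control mice. The ticks of the members lie within the body of all genes in the CD70Tg comparisons, between -0.82 and 0.47 in Tregs and -0.87 and 1.22 in Tconvs, and spread to between -1.20 and 2.35 between the subsets.

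Per kilobase of exon and M reads, Ldha was the highest member in control Tconvs (247 ± 15.5, SD, n = 2) and in control Tregs (169 ± 13.0). In Tconvs Aldoa, Pkm (167 ± 7.73) and Gapdh (150 ± 0.128) came next, and in Tregs Gapdh (143 ± 12.6), Pkm (143 ± 6.05) and Aldoa (103 ± 13.3), where Gapdh and Pkm did not differ beyond their spread. This order depends on the length used: per kilobase of the longest transcript, Ldha stayed the highest in both, but Taldo1 (193) and Gpi1 (190) stood beside Gapdh (189) in control Tconvs, and control Tregs had Pkm at 294, Aldoa at 194 and Gapdh at 180. Hif1a reached 24.4 ± 4.98 in control Tconvs and 67.0 ± 3.45 in control Tregs. At the low end were Vegfa and Hk2, at 0.455 ± 0.182 and 0.264 ± 0.00592 in Tconvs. Reads of several abundant members can also come from processed copies elsewhere in the genome: the share of 50-base words found in other genes was 68.0% for Pgk1, 41.5% for Pgam1, 30.5% for Pkm, 27.2% for Gapdh and 16.6% for Ldha, and 48.9% for Bnip3, whereas it was at most 1.5% for Slc2a3, Slc16a3, Hk2, Pdk1, Hif1a and Myc. The counts of the former are thus uncertain in level, depending on how reads with several matches were treated.

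Between the 2 libraries of a group, most members differed in the same direction. In control Tregs, 29 of 34 were higher in the first library, against 48.6% of all genes, and in CD70Tg Tregs 9 of 34, against 50.6%. In Tconvs most genes were shifted likewise: in control Tconvs 27 of 34 members were higher in the first, against 67.9% of all genes, and in CD70Tg Tconvs 7, against 25.4%. The members are thus not replicates of each other.

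Genes of the same pathways outside the 35 were counted in the same way. Of 41 other genes of glycolysis and pyruvate metabolism 29 were tested, and in Tregs 2 rose and 2 fell with the transgene, against 3.94% and 3.46% of all genes. Arrdc4, a glucose-responsive arrestin that restrains glucose uptake, rose in Tregs from 790 ± 17.7 (SD, n = 2) to 2420 ± 200 (log2 fold change 1.61, adjusted p = 1.1e-04) and in Tconvs from 67.0 ± 14.1 to 372 ± 84.1 (2.38, adjusted p = 6.2e-07, limma). Slc2a6, a glucose transporter of lysosomes, rose from 16.5 ± 2.12 to 102 ± 9.90 in Tregs (2.32, adjusted p = 0.007, limma). Its control mean lay close to the value of 3 reads (14.5 and 13.1 in the control Treg libraries), so that the size of this rise is uncertain. Eno1b, a copy of the enolase gene Eno1, had 602 and 565 in control and 84 and 49 in CD70Tg Tregs, and 1138 and 1030 against 15 and 5 in Tconvs. It fell in both (log2 fold changes -3.08 and -6.27, adjusted p = 4.2e-05 and 2.3e-09, limma). Its CD70Tg values rest on few reads, as 1 read was worth 10.402 and 5.43 in CD70Tg Tregs and 2.876 and 0.602 in CD70Tg Tconvs. The sharing of its reads with Eno1 was not measured, so that the sizes of both falls and of their difference are uncertain. Gpd2, of the glycerol phosphate shuttle, fell in Tregs by 0.70 (adjusted p = 0.03, limma). In Tconvs Arrdc4 and Eno1b were the only genes of this list that passed, against 6.82% of all genes higher and 1.98% lower.

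Of 24 tested genes out of 30 others that respond to hypoxia, 2 rose and 1 fell in Tregs, against 3.94% and 3.46% of all genes. In Tconvs 1 fell, against 1.98%. Ddit4, an inhibitor of mTORC1 induced by stress, fell in Tregs from 6890 ± 647 to 3196 ± 460 and in Tconvs from 11300 ± 55.9 to 4382 ± 1448 (log2 fold changes -1.11 and -1.41, adjusted p = 7.0e-04 and 3.1e-05, limma). Epas1, the paralogue of Hif1a, rose in Tregs from 90.0 ± 2.83 to 317 ± 39.6 (1.76, adjusted p = 9.1e-05, limma), as did Plin2, a lipid droplet protein (0.67, adjusted p = 0.048). Of 20 tested partners of Myc and genes of mTORC1 signalling, Mxd1, which competes with Myc for Max, rose in Tregs from 2282 ± 129 to 5050 ± 210 and in Tconvs from 644 ± 103 to 1301 ± 214 (1.14 and 1.01, adjusted p = 1.0e-04 and 1.6e-04, limma). Max itself fell in Tregs by 0.37 (adjusted p = 0.048, limma). In the test of the difference of both changes, Eno1b (3.18, adjusted p = 0.0029) and Epas1 (1.48, adjusted p = 0.024, limma) were the genes of these 3 lists that passed. Between control Tregs and Tconvs, 5 genes of the first list were higher in Tregs and 6 lower, 6 and 6 of the second, and 7 and 2 of the third, with 29, 24 and 20 genes tested, against 27.5% of all genes higher and 18.4% lower. Those more than 2-fold apart were Arrdc4 (log2 fold change 3.48), Eno2 (2.48), Pfkfb1 (1.75), Eno3 and Hk3 (1.65 each) and Gpd2 (-1.31) in the first list, Epas1 (-2.83), Tfrc (1.25) and Egln3 (1.03) in the second, and Mxd1 (1.82), Mxd4 and Mga (1.10 each) in the third. In CD70Tg mice these counts were 7 and 3, 7 and 4, and 7 and 3, against 22.6% and 20.1% of all genes, led by Eno2 (3.13), Hif3a (1.37) and Mxd1 (1.96).

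The promoters of Hif1a, Aldoa and G6pdx are shown because their genes changed with the transgene and because Hif1a and Myc, both members, bind short motifs. Only windows that hold such a motif were taken, the first for each gene, so that its presence in them was set by this choice. Another window of Aldoa, at chr7:126800448-126800697, holds none. Each is the 250 bases before the RefSeq start in GRCm38.p6, read 5′ to 3′ along the gene, at chr12:73907617-73907866 (plus strand), chr7:126799255-126799504 (minus strand, 1 of 3 promoters of the gene) and chrX:74428881-74429130 (minus strand). Capitals mark ACGTG or GCGTG, the core of hypoxia response elements, on either strand (CACGT or CACGC where it is read on the other), with CACGTG, the E-box of Myc and Max, holding ACGTG.
Hif1a: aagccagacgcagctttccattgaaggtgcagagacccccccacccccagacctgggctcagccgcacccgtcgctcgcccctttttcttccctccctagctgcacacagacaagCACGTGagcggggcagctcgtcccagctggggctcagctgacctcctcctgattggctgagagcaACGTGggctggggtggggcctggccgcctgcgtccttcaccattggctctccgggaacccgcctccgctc
Aldoa: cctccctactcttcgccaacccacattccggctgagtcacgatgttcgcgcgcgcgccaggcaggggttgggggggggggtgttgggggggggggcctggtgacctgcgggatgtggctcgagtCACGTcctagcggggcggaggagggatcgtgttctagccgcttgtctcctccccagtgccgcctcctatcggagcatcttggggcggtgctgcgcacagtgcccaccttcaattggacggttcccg
G6pdx: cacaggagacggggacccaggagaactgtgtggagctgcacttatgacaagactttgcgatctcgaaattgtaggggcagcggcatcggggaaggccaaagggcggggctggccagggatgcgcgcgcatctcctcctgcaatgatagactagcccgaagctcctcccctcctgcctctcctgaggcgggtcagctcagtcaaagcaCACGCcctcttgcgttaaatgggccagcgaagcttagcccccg

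Hif1a holds 1 CACGTG, which reads as ACGTG on each strand, and 1 further ACGTG, so that the count over both strands is 3. Aldoa holds 1 ACGTG and G6pdx 1 GCGTG. Of 47 promoters of 33 members in the RefSeq table (Slc2a3 and Myc unmatched), 36 held ACGTG or GCGTG (76.6%), on either strand, and 30 of the 33 members had at least 1 such promoter. Among all 32851 promoters of that length the share was 38.6%, and among the 11429 promoters of tested genes 55.8%. CACGTG stood in 14.9% of the members' promoters, in 6.0% of all promoters and in 8.3% of those of tested genes. A match of these letters is a description of the sequence only.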

How the data were processed

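RNA of 8 libraries (Tregs and Tconvs of CD27+/- control and CD70Tg mice) was sequenced. The authors trimmed reads (Trimmomatic 0.36), mapped them to mm10 (STAR 2.5.3) and counted them (HTSeq 0.9.1). The deposited score values are these counts, scaled by the authors to 20 M per library and rounded up. The strand setting and the annotation used for counting are not given in the sources used here. Columns named KO were taken as CD27+/- controls, which the sample labels call WT, and carry no replicate number. No per-sample column was left out (0 not used).

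Low values are multiples of what 1 read is worth, from which reads per library were estimated. Those of the first control and the second CD70Tg Tconv libraries are less certain. Of the table, 4131 rows named after genomic clones were left out, since their steps matched those of the next library, and for 97 repeated names, 1 of them Aldoa, the row with the largest total was kept. Genes reaching 60 in 2 or more libraries were fitted with limma 3.58.1 (R 4.3.3) on log2(value + 5), with 1 mean for each of 4 groups, a mean-variance trend and Benjamini-Hochberg adjustment over 12798 genes. Fold changes are on that scale and understate those of low genes. The fit was tested on simulated data, where most changes of 1.5-fold were missed in both subsets and false calls in the Treg comparison exceeded the share that the threshold allows. Members with an adjusted p under 0.05 in a CD70Tg comparison, or over 2-fold between control subsets, are given in all libraries. Other list genes are named by adjusted p and a log2 fold change over 1, at most 4 a list and comparison, the leading gene only in CD70Tg subsets, and Gpd2, Plin2, Max, Hk3, Csf1r, and Itgam in Tconvs, outside this, after their values were seen. Identifiers matched GENCODE M21 for 99.7% of genes. Copies were counted as shared words of 50 bases. Members and lists were chosen with earlier results of these data known. Alternatives were the pseudocount, the filter, the scaling, limma-voom on reads, a 2-fold limit, clone-named rows, the libraries fitted and leaving out each library.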

Additional observations from a re-analysis of the deposited data

How the results depend on the processing

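With 2 libraries a group, precision is limited by replicates, and for Hk2, Bnip3, Pfkfb4 and Vegfa, with under 20 reads in at least 1 library, also by counting. Leaving out a library leaves 1 in its group, which is then assumed to vary like the others. Among the 34 members, 2 higher and 1 lower in CD70Tg Tregs became 0 and 0 with limma-voom, with no minimum value and with a 2-fold limit, 6 higher with the 4 libraries alone, and 0 to 3 and 0 to 1 on leaving out a library. In Tconvs, 2 higher and 1 lower became 4 and 3 with limma-voom, 0 and 0 with no minimum value and with a 2-fold limit, and 1 to 4 and 0 to 1 on leaving out a library (beside the 2-fold limit, Slc2a3 lost its call only with no minimum value, at an adjusted p of 0.083). The difference of both changes, 0 lower, became 0 to 1 on leaving out a library. Between control subsets, 8 lower became 1 with a 2-fold limit, 10 with limma-voom, with median-of-ratios factors and with the 4 libraries alone, and 4 to 9 on leaving out a library (4 without the second control Treg library), while 6 higher became 5 with a 2-fold limit and stayed at 6 in all others. Between CD70Tg subsets, 6 higher became 4 with a 2-fold limit and 5 with limma-voom and with no minimum value and 5 to 6 on leaving out a library, and 7 lower became 6 with limma-voom, 3 with no minimum value, 1 with a 2-fold limit and 3 to 11 on leaving out a library (11 without the first CD70Tg Tconv library). The calls over all genes moved as well: the 504 higher and 443 lower in CD70Tg Tregs became 186 and 66 with limma-voom, 175 and 85 with no minimum value and 828 and 788 with the 4 libraries alone, and the 873 and 253 in Tconvs 1338 and 660 with limma-voom and 313 and 51 with no minimum value. Beside these counts, Slc2a3 joined the calls in Tregs with median-of-ratios and upper-quartile factors, and Hk2 those in Tconvs with the 4 libraries alone. Between CD70Tg subsets, Pgk1 and Ldha lost their calls with the 4 libraries alone. The causes were not tested. In control mice the calls of Slc2a3, Slc16a3, Hk2, Aldoc, Hif1a, Myc, Pdk1, Aldoa, Ldha and Taldo1 held in the 17 alternatives other than the 2-fold limit. Of 2856 values of single members under alternatives, 98 changed their side of the threshold and 0 called values changed sign, and 107 values not past the threshold changed sign. No paired analysis was possible because the columns of the table carry no replicate numbers.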
